A study of Mus musculus with 9 samples.

Results

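The leptin and insulin signaling genes followed here were 10 of the 22180 genes measured in the kidneys, namely *Lepr*, *Leprot*, *Stat3*, *Socs3*, *Ptpn1*, *Insr*, *Irs1*, *Irs2*, *Pik3r1* and *Foxo1*. They were chosen by symbol: of the probe sets annotated to a symbol, the one with the highest mean over the 9 arrays stood for the gene, and every probe set of *Lepr* was to be listed. All 10 genes were found, on 14 probe sets, and *Lepr* had only 1. The groups were 3 male *db/m* mice on vehicle, 3 male diabetic *db/db* mice on vehicle and 3 male diabetic *db/db* mice on irbesartan, which blocks the angiotensin II type 1 receptor. Vehicle or drug was given for 12 weeks. The labels give the *db/db* mice an age of 10 weeks, the methods name another age, and no age was taken for the *db/m* mice. Both *db/db* groups are homozygous for the db allele of *Lepr*, carried on the C57BL/KsJ background, and *db/m* mice are the nondiabetic controls that carry it on 1 chromosome by the usual notation. Each kidney RNA was hybridized to its own Affymetrix array, and the labels name kidney and the MoGene-2_0-st array where the methods name renal cortex and another array.

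Leptin binds its receptor *Lepr* and, through a Janus kinase, turns on the transcription factor *Stat3*, which induces *Socs3*, a feedback inhibitor of the same receptor. Insulin binds *Insr*, which tags *Irs1* and *Irs2*, and these recruit the phosphatidylinositol 3-kinase that *Pik3r1* regulates. That kinase activates AKT, which keeps *Foxo1* out of the nucleus, and in the kidney insulin acts on tubule transport, glucose handling and podocytes. The phosphatase *Ptpn1* dampens signaling from both receptors. The db allele is a splice mutation that removes the signaling tail of the long *Lepr* isoform and leaves other transcripts of the gene, so a probe set on *Lepr* mRNA does not check the genotype.

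The values were deposited as RMA values on the log2 scale, where a difference of 1 is a factor of 2 in signal. Values of different probe sets have no common scale, so levels are compared only within a gene or a list, and none is called low or high against another gene. Over the 9 arrays the correlation between any pair lay between 0.984 and 0.994. Marker lists of kidney cells were compared across arrays and not with each other: 12 proximal tubule genes averaged 11.14 to 11.3 per array, 6 podocyte genes 6.18 to 6.46, 12 endothelial genes 7.75 to 7.87 and 8 stromal genes 6.88 to 7.5, and 12 distal and medullary genes averaged 8.81 to 8.86 in *db/m* against 9.09 to 9.35 in all *db/db* kidneys. Of those distal and medullary genes, the calcium binding *Calb1* and the sodium channel subunit *Scnn1a* were called higher in both *db/db* groups than in *db/m*, and the part of these genes' cells in the results was not tested. In RNA of mixed kidney tissue, fewer cells of a type and less RNA per cell cannot be told apart.

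Of the arrays, 3 stood apart from their groups. *Db/db* replicate 3 carried neutrophil transcripts, with *S100a8* at 6.08 against 1.78 to 2.28 on the other 8 arrays and *Ly6g* at 4.25 against 2.05 to 2.96. Irbesartan replicate 2 carried fat cell transcripts, with *Lep*, which encodes leptin itself, at 7.15 against 3.16 to 3.98. Its mean of 10 adipose markers was 6.09, against 5.46 on *db/m* replicate 2 and 4.54 to 4.86 on the rest. However, *Adipoq*, the adiponectin gene, read 3.40 on irbesartan replicate 2 and 2.49 to 3.07 elsewhere. *Db/m* replicate 3 differed from the other *db/m* arrays in circadian genes, with the clock activators *Npas2* at 7.85 against 5.70 and 5.97 and *Arntl* at 6.88 against 5.41 and 5.59. Values of the 10 genes that rest on 1 of these arrays are given with and without it.

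Promoter windows of RefSeq (GRCm38.p6, 250 bases before to 50 after a transcription start) were found for 9 of the 10 genes, in 11 windows. They were searched on both strands for GTAAACA, the core that FOXO factors prefer, and for TTCNNNGAA, the palindrome bound by STAT factors, and, after the values had been seen, for the E-box CACGTG that clock activators bind. The FOXO core was in 0 of the 11 windows and in 3.65% of all 32851 windows. The STAT palindrome was in the window of *Socs3* and in 8.3% of all windows, and the E-box was in those of *Irs1* and *Irs2* and in 7.15% of all windows. The windows that held a match are shown 5′ to 3′ along the gene with the match in capitals, because *Socs3* is read beside *Stat3* and the *Irs1* and *Irs2* pair beside clock genes in the values that follow. A match describes letters and says nothing of binding.
Socs3 (chr11:117969317-117969616, minus strand): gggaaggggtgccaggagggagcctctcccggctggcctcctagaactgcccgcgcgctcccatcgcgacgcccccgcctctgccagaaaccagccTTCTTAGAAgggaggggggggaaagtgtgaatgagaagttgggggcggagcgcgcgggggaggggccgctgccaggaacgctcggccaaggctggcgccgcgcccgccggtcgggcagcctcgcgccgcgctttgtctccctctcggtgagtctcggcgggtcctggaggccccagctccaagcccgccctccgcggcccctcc
Irs1 (chr1:82291390-82291689, minus strand): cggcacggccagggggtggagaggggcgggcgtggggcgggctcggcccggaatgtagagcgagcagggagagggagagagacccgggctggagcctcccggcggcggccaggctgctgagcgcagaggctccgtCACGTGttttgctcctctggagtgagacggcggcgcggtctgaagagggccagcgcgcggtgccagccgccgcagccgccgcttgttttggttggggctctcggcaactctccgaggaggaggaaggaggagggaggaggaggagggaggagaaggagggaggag
Irs2 (chr8:11008880-11009179, minus strand): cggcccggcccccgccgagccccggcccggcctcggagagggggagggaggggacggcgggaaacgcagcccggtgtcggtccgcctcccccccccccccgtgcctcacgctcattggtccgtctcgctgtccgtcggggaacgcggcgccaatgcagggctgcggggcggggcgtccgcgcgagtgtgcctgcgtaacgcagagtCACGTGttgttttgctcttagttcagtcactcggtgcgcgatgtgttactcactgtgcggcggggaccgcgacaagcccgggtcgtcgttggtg
The STAT palindrome of *Socs3* ended 146 bases before the start, the E-box of *Irs1* 110 bases before it and the E-box of *Irs2* 39 bases before it. No window of the 10 genes held more than 1 of the 3 motifs, so no matches overlapped.

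The comparisons asked how diabetes in *db/db* mice and treatment with irbesartan relate to renal transcripts. A limma fit to the 9 arrays gave the tests, and a gene was called when its log2 difference passed 0.5 and its p, adjusted by Benjamini-Hochberg across the whole array, was under 0.25. Differences are the first group named minus the second, and irbesartan differences run treated minus untreated, the opposite direction to the signs in the study's own list of genes. None of the 10 genes was called in any comparison: 0 of 10 between *db/db* and *db/m*, where 2.3% of all genes were called, 0 of 10 between treated and untreated *db/db*, where 1.01% were, and 0 of 10 between treated mice and *db/m*, where 3.89% were. At an unadjusted p under 0.05 the counts were 3, 1 and 4 of 10, where 13%, 12.2% and 17% of all genes had one. A one-way analysis of variance, the kind of test the methods name, was run on only the 6 arrays of each comparison and also called 0 in each. The intervals bound what could have been missed: the 95% interval of the difference lay inside a log2 difference of 0.5 either way for 6, 7 and 6 of the 10 genes. For *Leprot*, *Stat3*, *Ptpn1*, *Insr* and *Pik3r1* it did so in all 3 comparisons. The 3 comparisons share arrays, so their values are given side by side and were not set against each other.

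**Figure D1:**
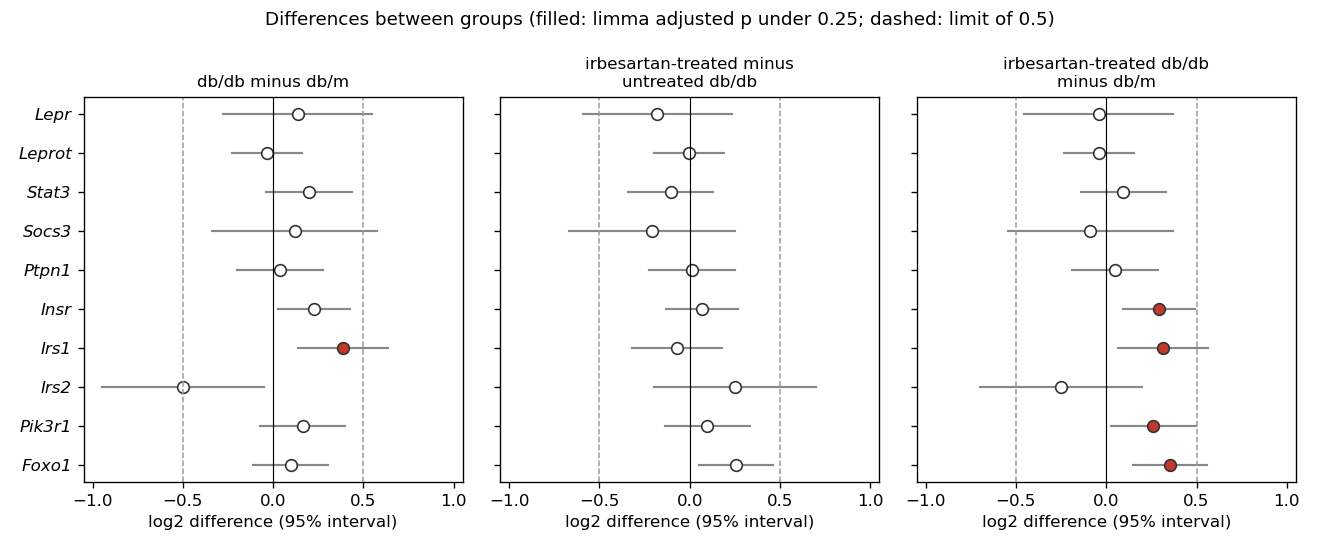
Log2 difference (horizontal axis) of each gene in the 3 comparisons, with the 95% interval from limma as a line; filled points have an adjusted p under 0.25 and dashed lines mark the limit of 0.5. No filled point lies past a dashed line, and *Irs2*, *Lepr* and *Socs3* have the widest intervals.

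*Lepr*, the leptin receptor (GRCm38.p6 chromosome 4, 101717137 to 101815352), is the gene that carries the db allele. It read 3.98, 3.59 and 3.61 in *db/m*, 3.77, 3.54 and 4.28 in *db/db*, and 3.90, 3.70 and 3.46 in irbesartan-treated *db/db* mice. The groups overlapped, and *db/db* replicate 3 was the highest of the 9. The log2 difference between *db/db* and *db/m* was 0.14 (SE 0.19, limma adjusted p = 0.805) and turned to -0.07 without *db/db* replicate 3. Between treated and untreated *db/db* it was -0.18 (SE 0.19, limma adjusted p = 0.745), and 0.03 without that array.

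*Leprot*, the gene next to *Lepr*, which encodes a separate membrane protein that lowers display of the receptor at the cell surface, was the steadier of the pair. It read 7.88, 7.99 and 7.98 in *db/m*, 7.83, 7.91 and 8.01 in *db/db*, and 7.96, 7.92 and 7.86 after irbesartan. The groups overlapped fully, and the difference between *db/db* and *db/m* was -0.04, with a 95% interval of -0.23 to 0.16. Around the locus, 23 measured genes on chromosome 4, *Lepr* and *Leprot* among them, were listed because flanking chromosome can travel with an allele in breeding. These genes start at -4139 to 1454 kb from the start of *Lepr*. Between *db/db* and *db/m* they differed by -0.16 to 0.37, and 0 of the 23 were called by limma (4 at an unadjusted p under 0.05, which 13% of all genes had). *Dnajc6*, a clathrin uncoating factor whose gene begins at -220 kb from *Lepr*, was the only one called in any comparison. It read 7.66, 7.70 and 7.63 in untreated and 7.07, 6.99 and 7.16 in irbesartan-treated *db/db* kidneys, a log2 value that fell by 0.59 (SE 0.13, limma adjusted p = 0.164), while the *db/m* arrays at 7.57, 7.42 and 7.0 lay below the untreated *db/db* arrays and overlapped the treated ones. Between *db/db* and *db/m* the difference was 0.33 (limma adjusted p = 0.317). The call with irbesartan was lost when *db/db* replicate 1 or 2 or irbesartan replicate 1, 2 or 3 was left out. It was also lost with every probe set tested and in the one-way analysis of variance on the 6 arrays compared.

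*Stat3*, the transcription factor downstream of the leptin receptor, read 8.68, 8.65 and 8.72 in *db/m*, 8.73, 8.86 and 9.07 in *db/db*, and 8.77, 8.91 and 8.67 after irbesartan. Every *db/db* array lay above every *db/m* array but by a narrow margin. The log2 difference was 0.20 (SE 0.11, limma adjusted p = 0.465), and 0.11 without *db/db* replicate 3. Treated and untreated *db/db* kidneys overlapped, with a difference of -0.11 and a 95% interval of -0.34 to 0.13.

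*Socs3*, the feedback inhibitor that STAT3 induces, had the widest spread of the leptin branch within untreated *db/db*. It read 4.38, 4.35 and 4.01 in *db/m*, 3.93, 4.32 and 4.85 in *db/db*, and 4.38, 3.92 and 4.18 after irbesartan. The *db/db* group held the highest array, replicate 3, and nearly the lowest. The log2 difference to *db/m* was 0.12 (SE 0.21, limma adjusted p = 0.85) and turned to -0.12 without replicate 3. A second probe set of *Socs3* averaged 2.08 over the arrays and did not follow the first, with *db/db* replicate 3 the lowest at 1.96.

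*Ptpn1*, the phosphatase that dampens signaling from both receptors, read 5.62, 5.92 and 5.84 in *db/m*, 5.75, 5.74 and 6.0 in *db/db*, and 5.84, 5.83 and 5.86 after irbesartan. The groups overlapped, and *db/db* replicate 3 was again the highest. The difference between *db/db* and *db/m* was 0.04, with a 95% interval of -0.20 to 0.28, and -0.05 without that array.

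All 5 genes of the leptin branch were highest on *db/db* replicate 3, the array with neutrophil transcripts. Of the wider list of 26 leptin and Janus kinase genes, which includes these, 6 were highest on it and 6 on *db/m* replicate 3. The same array was the highest of the 9 for 10 of 24 genes listed as STAT3 targets, whose mean there was 6.04 against 5.56 to 5.91 on the others. Irbesartan replicate 2 was the highest for 7 of the 24. The share of all genes that peak on each array was not counted. *Lcn2*, the iron carrier lipocalin that tubules and neutrophils both release, read 7.87 on *db/db* replicate 3 and 4.82 to 6.03 on the other 8. The receptor subunits *Il4ra* and *Osmr* read 6.76 and 6.74 there, each its highest value. The 10 measured immune markers averaged 5.18 on this array and 3.85 to 4.62 on the others, and their part in the leptin branch values was not tested. The 5 genes with the pattern most like *Lepr*, by Pearson's r over the 9 arrays among 2606 genes with a mean above 5 and an SD of 0.2 or more, were *Sytl2* (r = 0.902), *Jam2* (r = 0.876), *Elfn1* (r = 0.865), *Ppbp* (r = 0.864) and *Matn2* (r = 0.851). Without *db/db* replicate 3 their r with *Lepr* was 0.655 to 0.751. Since *Lepr* peaked on that array, genes chosen for likeness to it tend to peak there by construction. *Ppbp*, a chemokine stored in platelets, read 9.10 on *db/db* replicate 3 and 5.95 to 7.02 elsewhere.

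**Figure D2:**
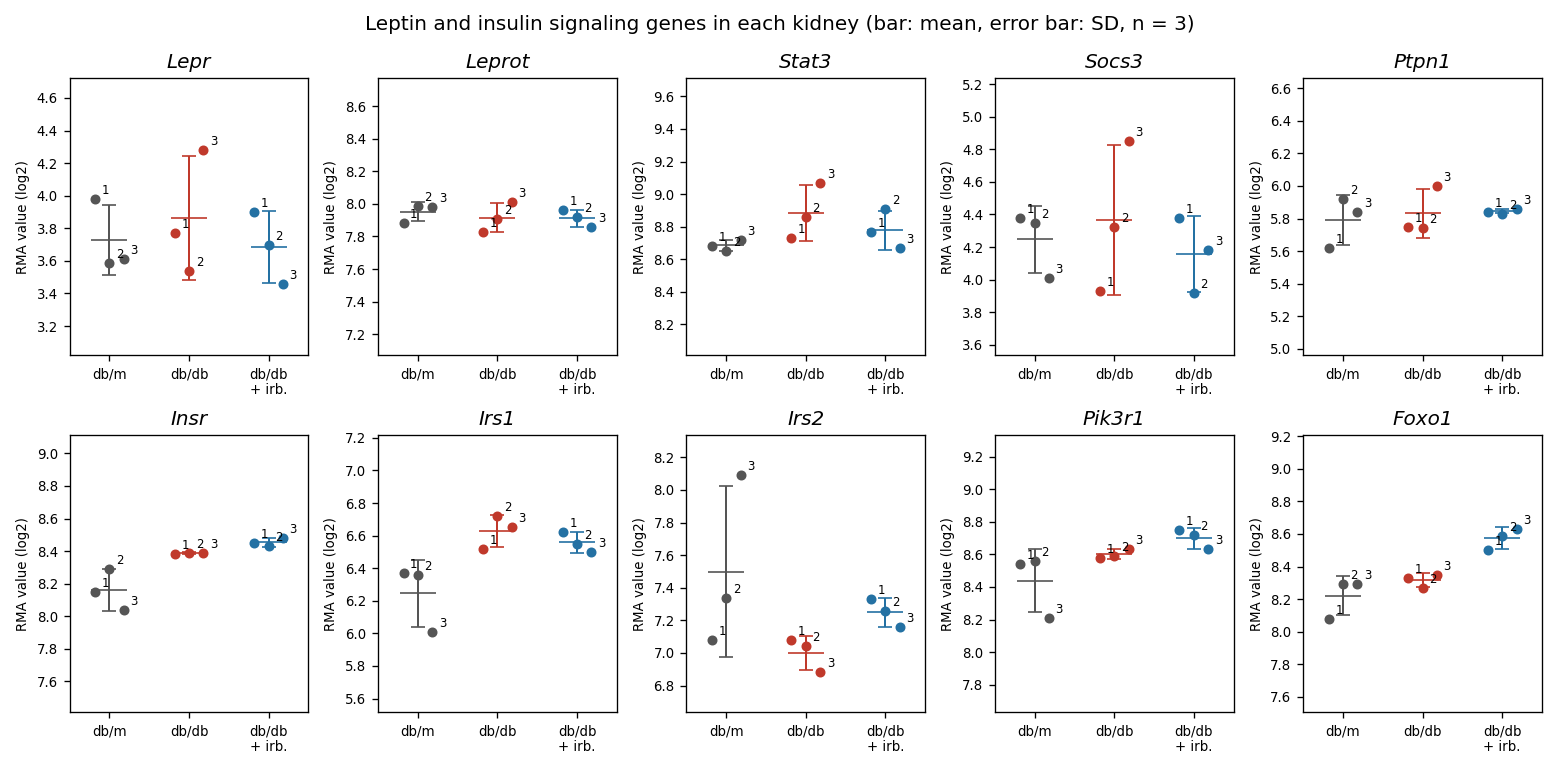
RMA value on the log2 scale (vertical axis, the same span in every panel) for each gene in *db/m*, *db/db* and irbesartan-treated *db/db* (irb.) kidneys; points are single mice with their replicate number, bars are means and error bars are SD (n = 3). The 5 upper panels peak at *db/db* replicate 3, whereas *Insr*, *Irs1* and *Pik3r1* are lowest and *Irs2* is highest at *db/m* replicate 3.

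*Insr*, the insulin receptor (chromosome 8, 3150922 to 3279649), separated the *db/m* kidneys from all *db/db* kidneys. It read 8.15, 8.29 and 8.04 in *db/m*, 8.38, 8.39 and 8.39 in *db/db*, and 8.45, 8.43 and 8.48 after irbesartan. The 3 groups did not overlap and lay in that order. The log2 difference was 0.23 between *db/db* and *db/m* (SE 0.09, limma adjusted p = 0.313) and 0.29 between treated mice and *db/m* (SE 0.09, limma adjusted p = 0.120), or 1.23 times the signal. Between treated and untreated *db/db* it was 0.07, with a 95% interval of -0.13 to 0.27. Without *db/m* replicate 3, the lowest array, the first was 0.17 and the second 0.23 (limma adjusted p = 0.199).

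*Irs1*, the adaptor that couples the receptor to phosphatidylinositol 3-kinase, had the lowest adjusted p of the 10 genes between *db/db* and *db/m*. It read 6.37, 6.36 and 6.01 in *db/m*, 6.52, 6.72 and 6.65 in *db/db*, and 6.62, 6.55 and 6.50 after irbesartan. Every *db/db* array of either group was above every *db/m* array, and the *db/db* groups overlapped each other. The log2 difference to *db/m* was 0.39 without drug (SE 0.11, limma adjusted p = 0.165) and 0.31 with irbesartan (SE 0.11, limma adjusted p = 0.186), both under the fold limit. Without *db/m* replicate 3 they were 0.27 (limma adjusted p = 0.259) and 0.19 (limma adjusted p = 0.333). A second *Irs1* probe set averaged 2.27 and lay lower in *db/db* than in *db/m*, by 0.22 (limma adjusted p = 0.533 over all probe sets).

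*Irs2*, the other adaptor, ran the opposite way. It read 7.08, 7.34 and 8.09 in *db/m*, 7.08, 7.04 and 6.88 in *db/db*, and 7.33, 7.26 and 7.16 after irbesartan. The *db/m* mean of 7.5 ± 0.525 (SD, n = 3) was set by replicate 3, and *db/m* replicate 1 read the same as the highest *db/db* array. The log2 difference between *db/db* and *db/m* was -0.50 (SE 0.20, limma adjusted p = 0.329), just inside the fold limit, and -0.21 without *db/m* replicate 3. Leaving out *db/m* replicate 1 in its place gave -0.71 and the only call of any of the 10 genes when single arrays were left out (limma adjusted p = 0.162). All 3 irbesartan arrays lay above all 3 untreated *db/db* arrays, with a difference of 0.25 (SE 0.20, limma adjusted p = 0.660). Between treated mice and *db/m* the difference was -0.25 and turned to 0.04 without *db/m* replicate 3. Another probe set, annotated to both *Irs2* and *9530052E02Rik* and so not used for the gene, averaged 3.05. Against *db/m* it differed by 0.167 in *db/db* and 0.278 in treated mice (limma adjusted p = 0.687 and 0.371 over all probe sets).

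Across the 9 arrays *Irs1* and *Irs2* opposed each other (Pearson r = -0.836), and *Irs1* went with *Insr* (r = 0.851) and with *Pik3r1* (r = 0.862). Without *db/m* replicate 3 these were -0.369, 0.625 and 0.493 over 8 arrays, so the opposition rested largely on that kidney. They are descriptions over arrays that also share group differences. On that array the circadian repressor *Ciart* read 5.72 against 7.38 and 7.01 in the other *db/m* kidneys, and *Dbp*, a clock output factor, 7.12 against 8.68 and 8.18. Clock genes also differed between group means, and the *db/m* means include replicate 3. Between *db/db* and *db/m*, *Npas2* differed by -1.654 (limma adjusted p = 0.146) and *Arntl* by -1.002 (limma adjusted p = 0.232), both called. The groups did not overlap for *Npas2*. For *Arntl* they did, with *db/db* replicate 3 at 5.48 and *db/m* replicate 1 at 5.41. For these clock genes no difference without *db/m* replicate 3 is given. With irbesartan in *db/db*, *Arntl* differed by 1.813 (limma adjusted p = 0.123, called) and *Npas2* by 1.057 (limma adjusted p = 0.397, not called). *Ciart* read 5.62, 5.49 and 5.79 on the treated arrays. The part of the clock genes in the *Irs2* values was not tested.

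*Pik3r1*, the regulatory subunit of phosphatidylinositol 3-kinase, read 8.54, 8.56 and 8.21 in *db/m*, 8.58, 8.59 and 8.63 in *db/db*, and 8.75, 8.72 and 8.63 after irbesartan. Both *db/db* groups lay above *db/m* without overlap, by a narrow margin apart from *db/m* replicate 3. The log2 difference between treated mice and *db/m* was 0.26 (SE 0.11, limma adjusted p = 0.243), and 0.15 without that replicate (limma adjusted p = 0.418). Between *db/db* and *db/m* it was 0.16 (limma adjusted p = 0.558), and 0.05 without it.

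*Foxo1*, the transcription factor that insulin holds inactive, was the gene most set apart by the drug group. It read 8.08, 8.29 and 8.29 in *db/m*, 8.33, 8.27 and 8.35 in *db/db*, and 8.50, 8.59 and 8.63 after irbesartan. The treated kidneys lay above all 6 others, which overlapped. The log2 difference was 0.35 against *db/m* (SE 0.09, 95% interval 0.15 to 0.56, limma adjusted p = 0.0699) and 0.26 against untreated *db/db* (SE 0.09, 95% interval 0.05 to 0.46, limma adjusted p = 0.320). Against *db/m*, the adjusted p stayed between 0.0723 and 0.233 when any 1 array was left out, and the difference between 0.28 and 0.39. Under the other alternatives tried the adjusted p ran from 0.0311 to 0.224. A second *Foxo1* probe set gave the same order: 3.98, 4.08 and 4.5 in *db/m*, 4.48, 4.23 and 4.22 in *db/db*, and 4.69, 4.71 and 4.54 after irbesartan.

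Counted over the 10 genes, non-overlapping groups with the first group higher were found for 4 between *db/db* and *db/m* (*Stat3*, *Insr*, *Irs1* and *Pik3r1*) against 9.18% of all genes, for 3 between treated and untreated *db/db* (*Insr*, *Irs2* and *Foxo1*) against 8.71%, and for 4 between treated mice and *db/m* (*Insr*, *Irs1*, *Pik3r1* and *Foxo1*) against 10.8%. None of the 10 had the first group lower without overlap, and the share of all genes in that direction was not counted. At an adjusted p under 0.25 with no limit on size, 1 gene was higher in *db/db* than in *db/m* (*Irs1*) against 3.58% of all genes, and 4 were higher in irbesartan-treated *db/db* than in *db/m* (*Insr*, *Irs1*, *Pik3r1* and *Foxo1*) against 6.45%. Between treated and untreated *db/db* 0 of 10 passed, against 2.89% of all genes in either direction. The 4 genes against *db/m* lie on 1 pathway and 3 of them share the low *db/m* replicate 3, without which *Insr* and *Foxo1* kept an adjusted p under 0.25. The count against *db/m* was 1 without irbesartan replicate 1 or 3 and 2 without irbesartan replicate 2, and *Irs1* between *db/db* and *db/m* no longer passed without *db/db* replicate 2 or 3 or *db/m* replicate 3. The median log2 difference of the 10 genes was 0.13, 0.00 and 0.07 in the 3 comparisons, beside 0.01, -0.01 and 0.00 over all genes.

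**Figure D3:**
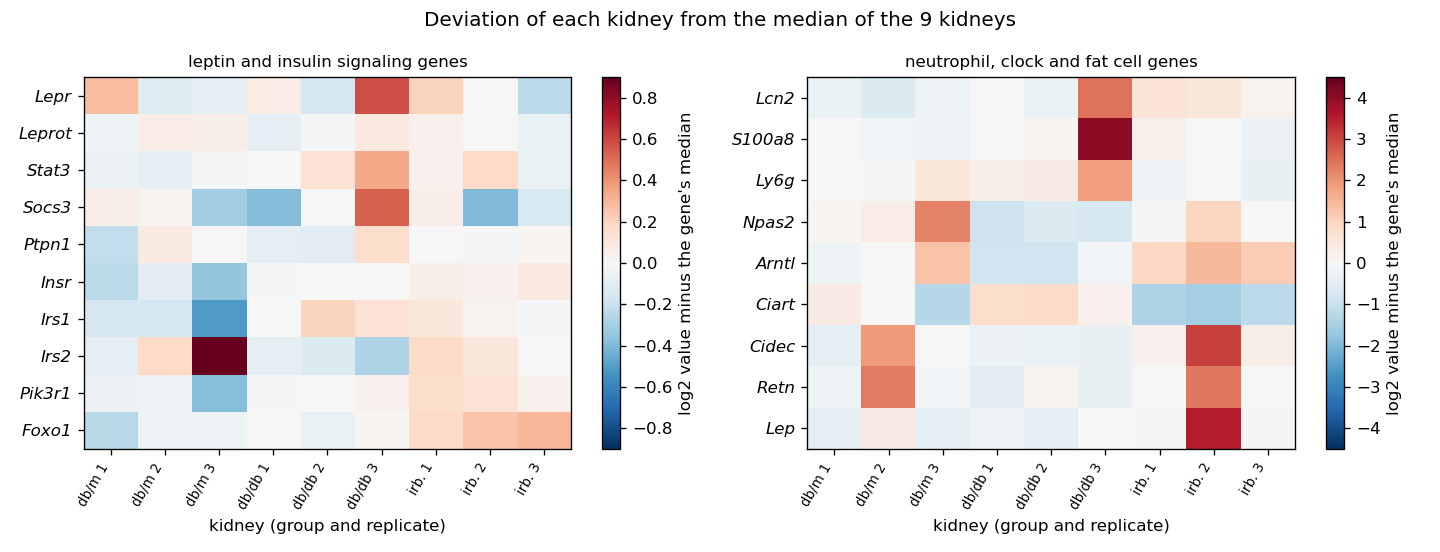
Colour gives each kidney's log2 value minus the median of the 9 kidneys (colour bars, with a wider scale at right) for the 10 genes (left) and for *Lcn2*, neutrophil, clock and fat cell genes (right); irb. marks irbesartan-treated *db/db* mice. The *db/db* 3 column is high in the leptin branch and in *S100a8* (6.08), and the *db/m* 3 column is high in *Irs2* (8.09) and *Npas2* (7.85).

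Among the wider signaling genes, few were called. Of 26 measured genes of leptin and Janus kinase signaling, which span receptors, kinases, STAT factors and SOCS inhibitors, 0 were called in any comparison by limma, with 1, 0 and 2 at an unadjusted p under 0.05 and medians of 0.03, -0.02 and 0.00. Of 21 measured genes around the insulin receptor, 0 were called in any comparison, with 5, 0 and 5 at an unadjusted p under 0.05 and medians of 0.00, 0.01 and 0.03. Over 125 genes of all 5 signaling lists that were not among the 10, the called share was 2.4% between *db/db* and *db/m*, 3.2% with irbesartan in *db/db* and 4.8% between treated mice and *db/m*, beside 2.3%, 1.01% and 3.89% of all genes.

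The calls between *db/db* and *db/m* lay among 39 genes of the PI3K, AKT and mTOR list, where 2 rose and 1 fell. *Pik3r3*, another regulatory subunit of the kinase, read 5.77, 5.93 and 5.57 in *db/m* and 6.39, 6.30 and 6.58 in *db/db*, a rise of 0.67 (SE 0.13, limma adjusted p = 0.0351). *Slc2a4*, which encodes the insulin-responsive glucose transporter GLUT4, read 6.25, 6.24 and 6.53 against 6.81, 6.89 and 6.82, a rise of 0.50 (SE 0.10, limma adjusted p = 0.0417). *Mtor*, the growth kinase, read 9.46, 9.50 and 9.53 against 9.0, 9.09 and 8.88, a log2 value that fell by 0.51 (SE 0.09, limma adjusted p = 0.027). The groups did not overlap for any of the 3, and none of them was called between treated and untreated *db/db* (0 of 39, with 2 at an unadjusted p under 0.05). Leaving out any 1 array left 2 or 3 genes of the list called between *db/db* and *db/m*, and leaving out the 3 arrays that stood apart left 1. The one-way analysis of variance on the 6 arrays compared called 0. With irbesartan *Slc2a4* was still above *db/m*, at 6.95, 6.89 and 6.85 (log2 difference 0.56, limma adjusted p = 0.0151). *Pik3r3* and *Mtor* were not called between treated mice and *db/m*. *Inpp5d*, a lipid phosphatase of blood cells, was lower there, at 5.14, 5.35 and 5.04 against 5.61, 5.81 and 5.94 in *db/m* (log2 difference -0.61, limma adjusted p = 0.021). Of 10 measured immune markers, *Ptprc*, *Csf1r* and *Cd3e* were called lower in the same comparison. The other 7 were not called, and 4 of the 10 had a positive difference. Whether leukocyte content accounts for *Inpp5d* was not tested.

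The FOXO list held 30 measured genes, the factors and genes they are known to activate. None was called between *db/db* and *db/m*. With irbesartan in *db/db* 2 rose and 1 fell, where 1.01% of all genes were called. Unadjusted p-values under 0.05 were held by 4, 5 and 12 of the 30 in the 3 comparisons, beside 13%, 12.2% and 17% of all genes. *Txnip*, a glucose-responsive inhibitor of thioredoxin, read 10.13, 9.74 and 10.30 in untreated and 10.53, 10.70 and 10.59 in treated *db/db* kidneys, a rise of 0.55 (SE 0.16, limma adjusted p = 0.237). *Pdk4*, which spares glucose by blocking pyruvate dehydrogenase, read 7.06, 6.14 and 8.12 against 8.67, 9.61 and 9.36, a rise of 2.11 (SE 0.48, limma adjusted p = 0.164). *Igfbp1*, a secreted binder of insulin-like growth factors that FOXO1 activates in liver, went the other way, from 6.54, 6.98 and 6.64 to 6.16, 5.86 and 5.64, a log2 value that fell by 0.84 (SE 0.24, limma adjusted p = 0.222). The list median was 0.09 beside -0.01 over all genes. Against *db/m*, *Pdk4* (log2 difference 1.47, limma adjusted p = 0.144) and *Txnip* (0.51, limma adjusted p = 0.13) were called in irbesartan-treated *db/db* kidneys, where 3.89% of all genes were called. All 3 calls between treated and untreated mice were lost when *db/db* replicate 1 or 2 or any irbesartan array was left out, and the list had 1 call without *db/m* replicate 2 and 2 calls when *db/db* replicate 3 was left out. It had 1 call with the replicate number as a block or a second quantile normalization, and 0 with every probe set or in the analysis of variance. Both calls against *db/m* were lost without irbesartan replicate 2 or 3, and the list had 1 call without *db/m* replicate 1, 3 without *db/m* replicate 2 and 4 without *db/m* replicate 3. The analysis of variance gave 0 there. The glucocorticoid-responsive list, which holds stress hormone targets, averaged 8.32 to 8.56 on the irbesartan arrays and 7.98 to 8.14 in *db/m*, with *db/db* at 8.08 to 8.46, and its part in these calls was not tested.

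Among 24 measured STAT3 targets, 0 were called between *db/db* and *db/m*, where 2.3% of all genes were called. With irbesartan in *db/db* 1 fell, where 1.01% of all genes were called. In irbesartan-treated *db/db* over *db/m*, 2 rose, where 3.89% of all genes were called. Unadjusted p-values under 0.05 were held by 4, 5 and 4 of the 24 in the 3 comparisons, beside 13%, 12.2% and 17% of all genes. *Ccnd1*, the G1 cyclin, read 10.13, 10.18 and 10.52 in untreated and 9.99, 9.54 and 9.80 in treated *db/db* kidneys, a log2 value that fell by 0.51 (SE 0.15, limma adjusted p = 0.229). *Fgb*, a fibrinogen chain, read 3.91, 4.25 and 4.55 in *db/m* and 4.80, 4.79 and 4.83 in irbesartan-treated *db/db* (log2 difference 0.57, limma adjusted p = 0.0597). *Myc*, the growth factor-responsive transcription factor, read 5.86, 5.38 and 6.03 against 6.07, 6.61 and 6.33 (log2 difference 0.58, limma adjusted p = 0.23). The *Ccnd1* call was lost when *db/db* replicate 1 or 2 or any irbesartan array was left out, without *db/m* replicate 1 or 2, with the replicate block, a second quantile normalization or every probe set, and in the analysis of variance. Treated mice against *db/m* gave 0 calls in the list without *db/m* replicate 1 and 1 call when any irbesartan array was left out, against 3 without *db/db* replicate 3 and 4 without *db/m* replicate 2.

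**Figure D4:**
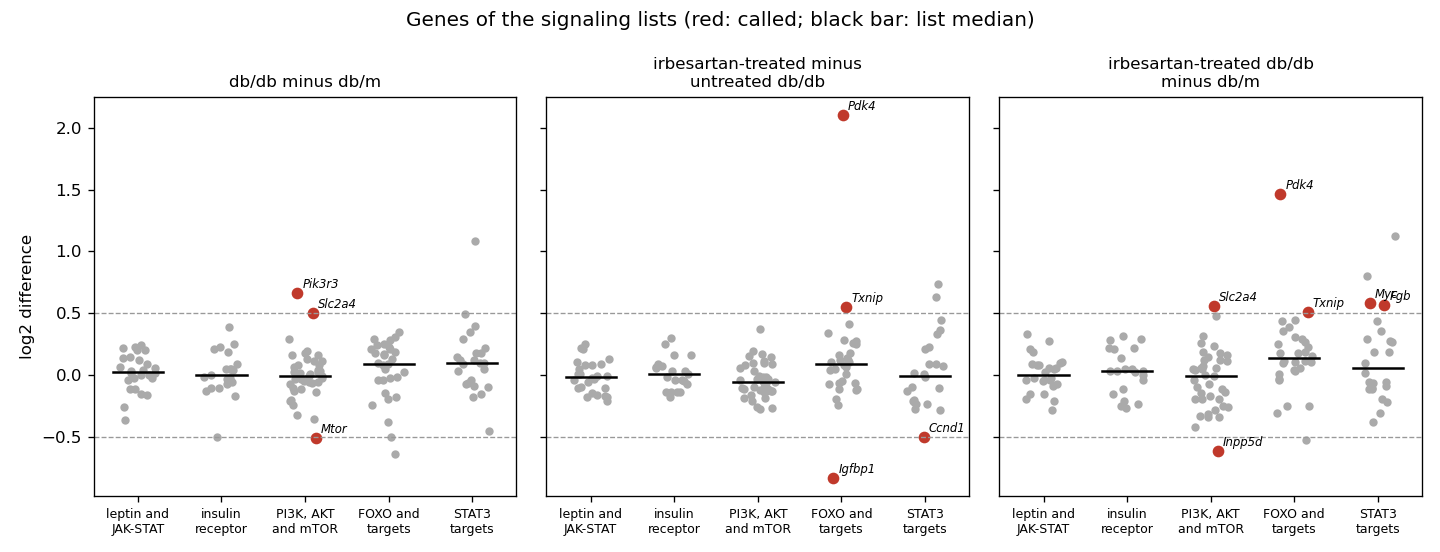
Log2 difference (vertical axis) of every measured gene in the 5 signaling lists (horizontal axis) for the 3 comparisons, with called genes in red and named, list medians as black bars and the limit of 0.5 dashed. The leptin and insulin receptor lists hold no red point, and *Pdk4* at 2.11 is the farthest from 0.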

How the data were processed

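Kidney RNA of 3 male *db/m*, 3 *db/db* and 3 irbesartan-treated *db/db* mice was measured, each mouse on its own array. Per the labels, the authors used RMA in Affymetrix Expression Console, and the log2 values they deposited, for 41345 probe sets, were used without change. Of these, 23521 carried a single symbol in the platform annotation, 1820 carried several and were left out, and 16004 carried none. The probe set with the highest mean stood for a gene, with no filter on low values, which gave 22180 genes.

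A single limma 3.58.1 model (R 4.3.3) held the 3 group means over the 9 arrays (6 residual and 5.05 prior degrees of freedom), and p-values were adjusted by Benjamini-Hochberg over all genes. Calls needed a log2 difference past 0.5 either way and an adjusted p under 0.25, reading the fold condition of the methods as a lower bound. The labels call the samples biological replicates, 3 per group, and the number of arrays limits the precision. Samples of the same replicate number did not deviate together (correlations of -0.077 to 0.042), so no pairing was used.

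The genes and lists were chosen with earlier results of these data known. Named genes were the 10 genes, every *Lepr* probe set, the called genes of 6 pathway lists, and the 5 genes most like *Lepr*; marker, clock and STAT3 target genes that set single arrays apart, and the E-box, were chosen after their values were seen. Of 268 listed symbols in 14 lists, 248 were measured. The alternatives used array weights, a variance trend, only the 6 arrays of a comparison, or a one-way analysis of variance on those 6 arrays. Others used the replicate block, median centring or a repeated quantile normalization, or genes above the median probe set (3.39). The rest used the mean of a gene's probe sets or all probe sets, other limits, and each array left out. A fit without the 3 arrays that stood apart, the count of genes by adjusted p alone, and correlations without 1 array, were added after seeing the data. The fit was tested on simulated data. Python 3.11.15 searched the promoters and drew the figures with matplotlib 3.10.9.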

Additional observations from a re-analysis of the deposited data

How the results depend on the processing

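Of 660 log2 differences of the 10 genes under the alternatives, 626 kept their direction and their side of the threshold, 6 passed it and 28, in 13 of 30 differences, changed sign. Many of the 660 could not change direction. Alternatives that alter only the test, the limits or the set of genes leave the log2 difference as it was. Leaving out an array does the same for the comparison that does not use it. Most of the 6 passed only because the fold limit was removed. The cause of the sign changes was not tested. The comparisons are *db/db* against *db/m*, then treated against untreated *db/db*, then treated *db/db* against *db/m*. Against 510, 223 and 862 genes called in them, the one-way analysis of variance on the 6 arrays compared called 5, 0 and 511. The study lists genes for irbesartan in *db/db*, so that analysis of variance did not reproduce its test. An adjusted p under 0.05 gave 227, 0 and 552, and no fold limit gave 1410, 641 and 3062. Only treated against untreated *db/db* moved with array weights (364), with the replicate block (143) and without the 3 arrays that stood apart (540), and every probe set gave 131 there and 1565 between treated mice and *db/m*. Leaving out 1 array gave 459 to 703, 20 to 336 and 767 to 1118. Under the replicate block no call of the 10 genes changed, while between treated and untreated *db/db* the calls in the FOXO list went from 3 to 1 and in the STAT3 target list from 1 to 0. The count of the 10 genes called was 0 throughout, except 1 and 4 with no fold limit between *db/db* or treated mice and *db/m*, and 0 to 1 between *db/db* and *db/m* when 1 array was left out. The count at an adjusted p under 0.25, 1, 0 and 4, was 0, 1 and 3 on the 6 arrays compared and 0, 1 and 3 with array weights, 2, 1 and 4 with a variance trend or a filter on low values, 0, 0 and 3 with the mean of the probe sets, 0, 0 and 2 with every probe set, 0, 0 and 1 by the analysis of variance or without the 3 arrays, 0 in each at an adjusted p under 0.05, and 0 to 2, 0 to 1 and 1 to 4 with 1 array left out.

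Between *db/db* and *db/m*, leaving out 1 array gave -0.073 to 0.298 for *Lepr*, -0.082 to 0.005 for *Leprot*, -0.121 to 0.337 for *Socs3* and -0.047 to 0.102 for *Ptpn1*. Between treated and untreated *db/db* it gave -0.341 to 0.031 for *Lepr*, -0.046 to 0.04 for *Leprot*, -0.425 to 0.032 for *Socs3* and -0.036 to 0.097 for *Ptpn1*. Between treated mice and *db/m* it gave -0.149 to 0.082 for *Lepr*, -0.207 to 0.033 for *Socs3*, -0.034 to 0.114 for *Ptpn1* and -0.462 to 0.044 for *Irs2*. Without the 3 arrays together, *Lepr* was -0.13, *Socs3* -0.24 and *Ptpn1* -0.025 between *db/db* and *db/m*, *Lepr* 0.024, *Leprot* 0.037 and *Socs3* 0.154 between treated and untreated *db/db* and *Irs2* 0.04 between treated mice and *db/m*. Between treated and untreated *db/db*, *Leprot* was 0.004 with array weights and 0.026 with a second quantile normalization, *Irs1* was 0.015 with the mean of the probe sets, and *Ptpn1* was -0.041 with median centring. The second quantile normalization gave -0.012 for *Ptpn1* between *db/db* and *db/m*. The 3 arrays per group limit the precision.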
